A study of Homo sapiens with 13 samples.

Results

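Messenger RNA was compared between MDA-MB-231 cells that carry a guide against VIRMA (KIAA1429), called sg2 here, and MDA-MB-231 cells infected with a non-targeting control, called NTC. MDA-MB-231 is a human breast cancer cell line without oestrogen and progesterone receptors. The comparison takes in all 14905 genes with a normalized read count of at least 10 in at least 3 of the 6 libraries, out of 38616 genes in the deposited table. It rests on 3 sg2 and 3 NTC libraries, 6 of the 9 RNA-seq libraries and of 13 samples in all. The other RNA-seq libraries are 3 of a line with another VIRMA guide (sg1), and the remaining 4 samples are a pull-down and an input for m6A, each from control and from VIRMA-depleted cells.

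Both lines were made with lentivirus and selection and were kept in high-glucose medium with serum and antibiotics, at passage 2. The sg2 line is labelled as a knockout in 1 field and as a knockdown in another. The labels do not say whether it is a clone or a mixed population, nor whether the 3 libraries of a line came from separate cultures. The p values therefore judge the difference between the lines against the spread among the libraries of a line, which may be only technical. Any difference between the lines that arose apart from the guide cannot be told apart from an effect of the guide. In bulk RNA, fewer cells that express a gene and less RNA per cell cannot be told apart either.

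VIRMA is the largest subunit of the m6A writer complex, which methylates adenosines of messenger RNA in the nucleus (N6-methyladenosine, m6A), and it holds the catalytic METTL3 and METTL14 pair and WTAP together. It guides methylation toward stop codons and the ends of transcripts, and it also binds factors that choose polyadenylation sites. m6A is read by YTH domain proteins, some of which hasten decay of the RNA, and by IGF2BP proteins, which can stabilise it.

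The 3 sg2 libraries were not alike. The library sg2-1 lay at 22.2 on the first principal component of the 9 RNA-seq libraries (54.4% of the variance), the other pair of sg2 libraries at -64.2 and -71.1, NTC between -9.17 and -5.42, and sg1 between 40.4 and 49.0. On the second component (18.3%) the 3 sg2 libraries lay together, from -27.6 to -18.5, apart from NTC (23.4 to 38.1), and the sg1 libraries lay from -21.4 to -3.87. Across the tested genes, the median absolute log2 difference from sg2-1 was 0.217 to 0.263 for the sg1 libraries, 0.317 to 0.379 for NTC, and 0.489 and 0.531 for sg2-2 and sg2-3. The library labelled sg2-1 was thus closer in level to the sg1 libraries than to the other libraries of its own label. The cause was not tested. Every gene called with all 6 libraries was also called, in the same direction, without sg2-1, and the counts of most lists are given both ways.

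The number of genes detected and the reads in small RNA genes moved with this division, and depth did not. The 6 libraries held 14099143 to 17865878 reads in genes, with sg2-1 between the other sg2 libraries. The library sg2-1 had 28911 genes above 0, near the 28968 to 31772 of sg1, whereas the other sg2 libraries had 25398 and 24257 and NTC 25398 to 26252. Reads in small nucleolar and Cajal body RNA genes were 7.33 per 10000 in sg2-1, 32.9 in sg2-2 and 43.4 in sg2-3, with 14.5 to 24.1 in NTC and 7.28 to 9.44 in sg1. Of the markers expected in MDA-MB-231, VIM, CD44, MSN, AXL, EGFR, CAV1, CAV2 and S100A4 had normalized counts of at least 2173 in each library, while ESR1, PGR, FOXA1, CDH1 and GATA3 were at most 42.4 and ERBB3, also on the list, was at 68.5 to 124. For markers of other cells, 2 of 8 leukocyte genes, 4 of 10 stromal genes and 5 of 14 genes of luminal breast or HEK293 cells passed the filter. Summed over all listed genes, the counts were 160 to 231 in NTC and 102 to 146 in sg2 for leukocyte markers, 1422 to 1537 and 689 to 870 for stromal markers, and 11644 to 12583 and 8193 to 11878 for the last list. CD14, 1 of the leukocyte genes that passed, was at 107 to 153 in NTC and at 54.9 to 93.7 in sg2. LYZ, the other, was at 40.8 to 66.8 and at 33.6 to 40.5. The leukocyte gene CD3E was at 0 in the NTC libraries and at most 1.31 in sg2, and PTPRC was at most 17.7. Most of the stromal sum was COL6A3. On the luminal and HEK293 list ZIC1, which did not pass, was at 70.5 in sg2-3, 0 in sg2-1 and sg2-2 and at most 3.03 in NTC. The part of these other cells in the results was not tested.

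VIRMA itself was read first. Its normalized count was 2196, 2122 and 2689 in NTC and 1566, 1990 and 2170 in sg2. The libraries sg2-1 and sg2-2 lay below all NTC libraries and sg2-3 lay among them, so the groups overlapped. The log2 difference of sg2 from NTC was -0.30 ± 0.17 (SE) and did not pass (limma adjusted p = 0.345; -0.16 and adjusted p = 0.239 without sg2-1). If the guide left a frameshift, the amount of RNA can stay as it was, so the count is a weak check of the label. Whether it did was not tested. In sg1 VIRMA had a mean of 1536 ± 90.0, beside 1908 ± 310 in sg2 (SD, n = 3). The other 7 genes of the writer complex also gave no call: of all 8, 0 passed with limma, edgeR or DESeq2, and 0 had an unadjusted p below 0.05. Without sg2-1, 3 of the 8 were higher in limma (METTL14 by 0.37, WTAP by 0.37 and ZC3H13 by 0.50), near the share of all genes that were higher in that fit, 29.5%. Of 12 m6A readers and erasers 0 passed in limma or edgeR (1 higher in DESeq2, 1 higher at an unadjusted p below 0.05), and 5 were higher without sg2-1. Among them was HNRNPA2B1, an RNA-binding protein proposed as an m6A reader, at 5320, 5151 and 5070 in NTC and 5015, 14095 and 20545 in sg2.

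HAS2, the hyaluronan synthase named in the study's title, fell. It was at 2436.5, 1633 and 2389 in NTC and at 365, 788 and 816 in sg2. All sg2 libraries lay below all NTC libraries, and sg2-1 was the lowest of them. The log2 fold change was -1.78 ± 0.33 (SE; limma adjusted p = 0.0305), and without sg2-1 it was -1.40 (adjusted p = 0.00011). The call was lost without NTC-1 (adjusted p = 0.175), NTC-2 (0.0798), NTC-3 (0.156), sg2-2 (0.0842) or sg2-3 (0.0536) in limma. In those fits the log2 fold change stayed between -1.98 and -1.68. Of 12 tested genes of hyaluronan synthesis, binding and breakdown, 1 fell (HAS2) and 1 rose, TMEM2, a transmembrane protein tied to the degradation of hyaluronan (log2 fold change 0.61, limma adjusted p = 0.0397). Without sg2-1, 4 of the 12 were higher and 2 lower, near the shares over all genes in that fit (29.5% and 20.5%). In sg1, which shares the NTC libraries with sg2, HAS2 had a mean of 666 ± 127, beside 657 ± 253 in sg2 (SD, n = 3).

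Across all genes, 682 of 14905 changed with all 6 libraries, 4.58% of those tested, at a limma adjusted p below 0.05 after Benjamini-Hochberg adjustment. Of these, 310 were higher (2.08%) and 372 lower (2.50%). The median absolute log2 fold change among them was 1.06, and 374 changed by at least 1 on that scale, 165 higher and 209 lower. In 630 cases the gene was protein-coding, in 26 a long noncoding RNA, and 19 had no match in RefSeq. In each of the 682 genes the 3 sg2 libraries lay on 1 side of the 3 NTC libraries. Over all genes tested, the sg2 libraries lay above all NTC libraries for 14.1% and below for 15.1%. Of the genes tested, 69 passed the filter through the sg2 libraries alone, of which 20 were called, and 46 through the NTC libraries alone, of which 6 were called. Of all 14905 genes edgeR called 756 (348 higher, 408 lower) and DESeq2 1894 (902 and 992). In limma 3410 genes had an unadjusted p below 0.05. The list counts of these kinds are to be read beside those numbers.

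Without sg2-1 the number of changed genes was 7454, or 50.0% of those tested, 4395 higher (29.5%) and 3059 lower (20.5%). All 682 genes were among them, each in the same direction. The list counts given without sg2-1 are to be read beside these shares of 29.5% higher and 20.5% lower. Of the 7454, sg2-1 lay on the same side of the NTC mean for 3977, or 53.4%. For 5798 genes sg2-2 and sg2-3 both lay above all NTC libraries, and in these sg2-1 lay above all NTC libraries too for 36.3% and below all of them for 43.5%. For 4465 genes sg2-2 and sg2-3 both lay below all NTC libraries, with sg2-1 below as well for 50.3% and above for 28.6%. Leaving out another library made the count small: 3 without NTC-1, 95 without NTC-2, 3 without sg2-2 and 100 without sg2-3. Without NTC-3 limma called 0 genes, with 2281 at an unadjusted p below 0.05. The genes that passed without NTC-1 and without sg2-2 were CST1, CST4 and CA9 each time, so every other call named here is lost in those fits.

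**Figure D1:**
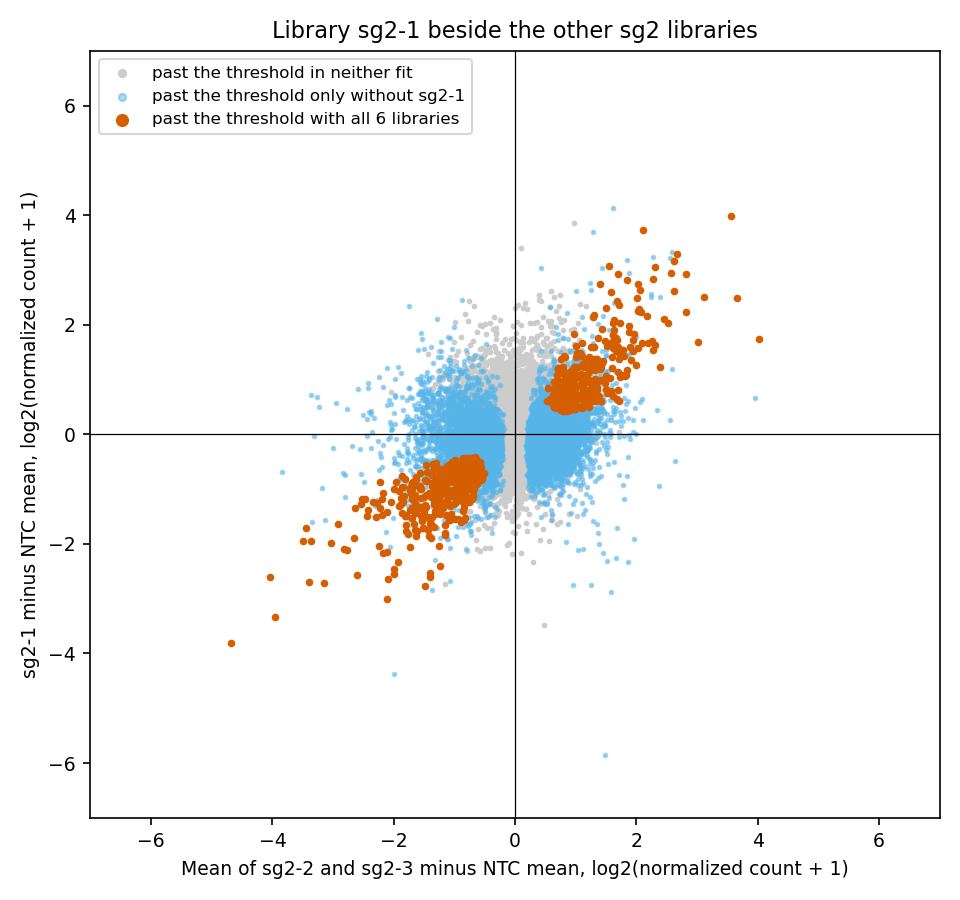
Each point is 1 of 14905 genes, placed by the mean difference of sg2-2 and sg2-3 from the NTC mean (horizontal) and the difference of sg2-1 from it (vertical), both in log2(normalized count + 1). The 682 genes past the threshold with all 6 libraries (orange) lie in the lower left and the upper right, while genes past it only without sg2-1 (blue) lie on both sides of the horizontal line.

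The largest falls included genes of secreted and surface proteins. CST1, a salivary-type cystatin that inhibits cysteine proteases, was at 6062, 3887 and 6345 in NTC and 379, 191 and 223 in sg2. Every sg2 library was far below every NTC library. The log2 fold change was -4.39 ± 0.29 (SE; limma adjusted p = 0.0032; -4.68 without sg2-1). Its neighbours CST4 (-3.75, limma adjusted p = 0.00194) and CST2 (-2.89, adjusted p = 0.0132) fell as well. These 3 cystatin genes are close copies of each other, and their separate values are uncertain, since the treatment of reads shared between copies is not stated in the notes.

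FN1, fibronectin, the matrix glycoprotein that integrins bind, was at 46744, 28660 and 52874 in NTC and at 6409, 3951 and 3893 in sg2. The groups were widely separated, although NTC-2 was low among the controls. The log2 fold change was -3.16 ± 0.30 (SE; limma adjusted p = 0.00725; -3.40 without sg2-1). CA9, a cell surface carbonic anhydrase and a standard target of the hypoxia factor HIF, was at 456, 403 and 484 in NTC and at 67.2, 50.6 and 48.3 in sg2. The 3 sg2 libraries lay close together and below all controls. On the log2(value + 1) scale it was 8.02-fold lower, with an SE of 0.18 log2 units (limma adjusted p = 0.00248), and its log2 fold change without sg2-1 was -3.15.

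Among genes with a mean of at least 100 in NTC, the falls next in size were ITGA10 (-2.99), a collagen-binding integrin chain, FOS (-2.68), the AP-1 transcription factor, SNED1 (-2.58), a matrix protein, ITGA1 (-2.55), another collagen-binding integrin chain, and CHI3L2 (-2.49), a chitinase-like protein. APOE, apolipoprotein E, fell by 2.40 and CXCL1, a chemokine that draws neutrophils, by 2.21 on the log2 scale. CXCL1 has close copies in CXCL2 and CXCL3, so its count is uncertain in the same way. Limma adjusted p values of these genes lay between 0.00725 and 0.0265. ITGA1 was at 9633, 6938 and 8116 in NTC and at 1896, 1196 and 1184 in sg2, without overlap.

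Among changed protein-coding genes, the one with the most reads was TIMP3, an inhibitor of metalloproteases, followed by FN1. TIMP3 was at 44780, 40334 and 50178 in NTC and 16834, 15787 and 13405 in sg2. It fell by 1.56 on the log2 scale (limma adjusted p = 0.00968). ERRFI1, a feedback inhibitor of the EGF receptor, fell by 0.86, ITGA2, the collagen-binding integrin chain alpha 2, by 0.78, SLC38A2, an amino acid transporter, by 0.73, and NDRG1, a stress-responsive gene, by 1.65. All 6 of these genes, FN1 included, were lower, and each had no overlap between the groups.

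Among genes with a mean of at least 100 in sg2, the largest rise was that of IL11, a cytokine of the IL-6 family that signals through gp130. It was at 134, 117 and 139 in NTC and at 737, 1707 and 1605 in sg2. All sg2 libraries were above all controls, with sg2-1 the lowest of them. The log2 fold change was 3.27 ± 0.31 (SE; limma adjusted p = 0.00725; 3.66 without sg2-1). HIST1H2BA, a testis-type histone H2B, rose by 3.26, from 9.1 to 14.8 in NTC to 42.4, 196 and 226 in sg2, and IL24, a cytokine of the IL-10 family, by 2.65. For IL24 the highest library was sg2-1, at 282, against 106 and 78.4 in sg2-2 and sg2-3.

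CDA, cytidine deaminase of the pyrimidine salvage pathway, rose by 2.61 and was nearly equal in the 3 sg2 libraries (162, 172 and 152; NTC 18.5 to 33.4). SLAMF7, a receptor best known from plasma cells and natural killer cells, rose by 2.55, ZNF114, a zinc finger gene, by 2.45, SH2D5, an SH2 domain adaptor, by 2.26, and HKDC1, a hexokinase, by 2.17. SP140, a bromodomain protein of immune cells, rose by 2.17, HSPB8, a small heat shock protein, by 2.13, and AP1M2, an epithelial clathrin adaptor subunit, by 2.00. ANKRD1, a muscle ankyrin protein and YAP target, went from 2921, 2853 and 2488 in NTC to 8767, 12591 and 12398 in sg2. It had the most reads among the largest rises (log2 fold change 2.01, limma adjusted p = 0.00725). Below the mean of 100, 13 changed protein-coding genes rose by more than AP1M2, ST6GALNAC5 (3.70) and HIST1H2AA (2.91) among them, and 2 fell by more than CXCL1, C8orf4 (-3.56) and MMP7 (-2.87).

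**Figure D2:**
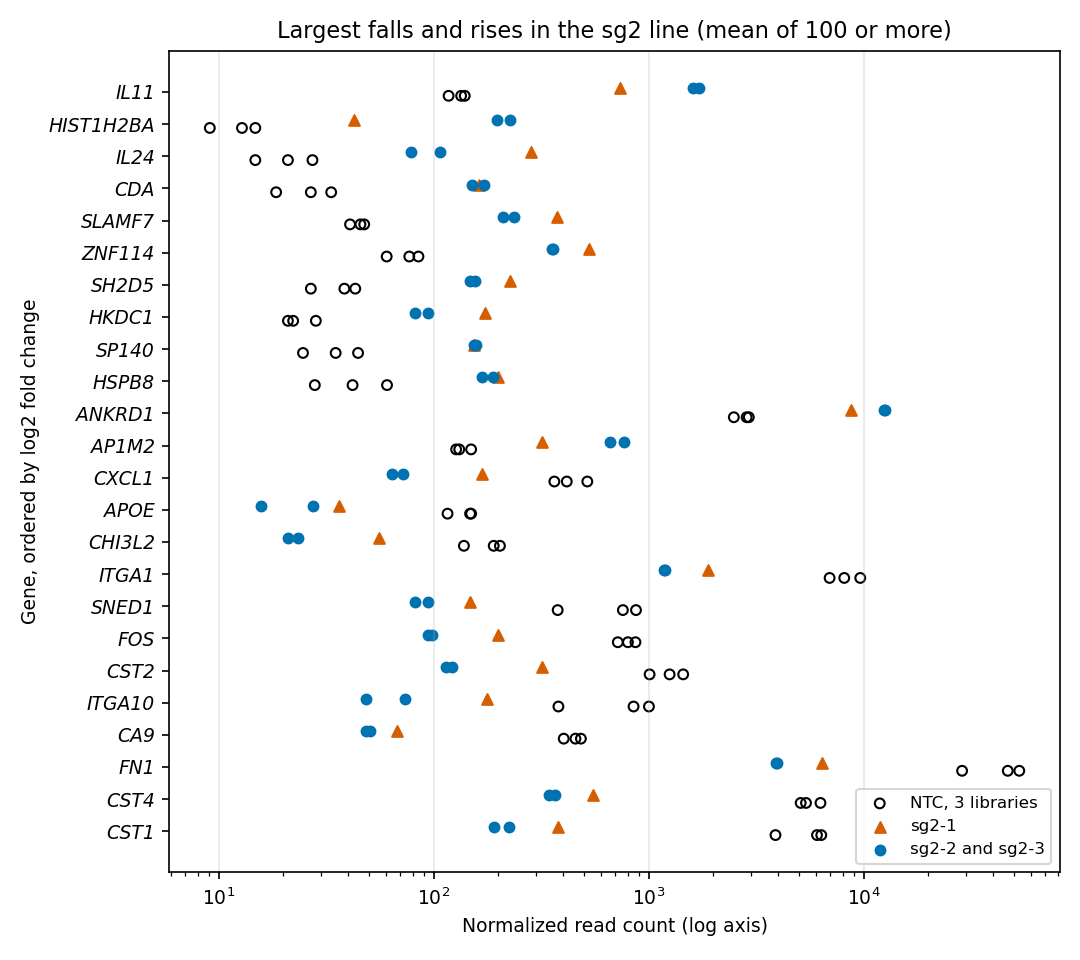
Normalized read counts on a log axis for the 12 protein-coding genes with the largest rises and the 12 with the largest falls among those with a mean of at least 100 in the higher group, with NTC libraries as open circles, sg2-1 as a triangle and sg2-2 and sg2-3 as filled circles. In each gene the 3 sg2 libraries lie on 1 side of the 3 NTC libraries, and in CST1 they lie at 191 to 379 against 3887 to 6345.

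The bases before the start sites of CA9, IL11, FN1 and FOS are shown because these genes carry the hypoxia, cytokine, matrix and immediate early results. They are the 250 bases before the RefSeq start on GRCh38.p14, in the direction of the gene, from chr9:35673678-35673927 (plus strand), chr19:55370464-55370713 (minus), chr2:215436069-215436318 (minus) and chr14:75278578-75278827 (plus). Capitals mark exact matches, on either strand, to ACGTG (the core of the HIF site), TGANTCA (AP-1), TGACGTCA (the cAMP response element) and TATAAA. None of these 4 motifs contains another.
CA9: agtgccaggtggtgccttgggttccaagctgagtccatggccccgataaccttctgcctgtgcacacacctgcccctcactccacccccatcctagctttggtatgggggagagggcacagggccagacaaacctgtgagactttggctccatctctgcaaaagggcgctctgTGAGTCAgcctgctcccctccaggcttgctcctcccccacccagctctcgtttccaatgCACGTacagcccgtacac
IL11: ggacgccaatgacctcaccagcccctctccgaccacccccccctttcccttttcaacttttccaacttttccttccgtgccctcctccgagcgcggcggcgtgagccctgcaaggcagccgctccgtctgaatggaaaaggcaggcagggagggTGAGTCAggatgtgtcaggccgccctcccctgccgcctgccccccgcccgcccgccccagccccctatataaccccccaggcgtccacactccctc
FN1: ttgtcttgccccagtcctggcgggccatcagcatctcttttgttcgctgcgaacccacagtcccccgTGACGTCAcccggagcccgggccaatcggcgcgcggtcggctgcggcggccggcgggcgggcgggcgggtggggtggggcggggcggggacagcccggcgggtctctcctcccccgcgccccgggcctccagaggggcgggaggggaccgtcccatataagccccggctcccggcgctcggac
FOS: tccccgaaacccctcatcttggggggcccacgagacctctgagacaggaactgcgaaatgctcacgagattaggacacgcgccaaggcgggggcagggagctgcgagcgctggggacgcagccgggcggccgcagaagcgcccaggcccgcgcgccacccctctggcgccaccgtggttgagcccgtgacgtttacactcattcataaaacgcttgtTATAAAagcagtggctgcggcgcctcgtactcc

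In CA9, which fell, the HIF core began 18 bases and the AP-1 match 77 bases before the start. IL11, which rose, had an AP-1 match 96 bases before its start, and FN1 a cAMP response element 183 bases before. Of 27305 promoters of this length, 18.7% held the HIF core, 6.6% the AP-1 motif, 1.77% the cAMP response element and 11.1% TATAAA, and among 10836 promoters of tested genes the shares were 23.3%, 4.23%, 2.87% and 5.73%. These matches describe the letters in the window and say nothing of binding in these cells.

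Hypoxia response genes were lower wherever they were called. Of 22 tested members 11 fell and 0 rose, where 2.50% of all genes fell, and the median log2 fold change of the list was -0.78 against 0.03 for all genes tested. The counts were 12 lower in edgeR and 15 in DESeq2, with 0 higher in either (17 lower and 0 higher at an unadjusted p below 0.05). MXI1, an antagonist of MYC, was at 1636, 1340 and 1474 in NTC and at 519, 548 and 538 in sg2. CA12, a carbonic anhydrase related to CA9, was at 2470, 1926 and 2750 in NTC and at 908, 742 and 681 in sg2. NDRG1 was at 23271, 16686 and 25457 in NTC and at 6914, 6841 and 6710 in sg2. In all 3 genes the sg2 libraries were tightly grouped and below every control, and the log2 fold changes were -1.46, -1.61 and -1.65 (limma adjusted p = 0.00725, 0.00908 and 0.00908). By library, the list median was -0.83 in sg2-1 and -0.71 in both sg2-2 and sg2-3, so it did not follow the division between the sg2 libraries. In sg1 the list median was -0.54 to -0.23, also below NTC. Without sg2-1, 16 members were lower and 0 higher in limma for sg2.

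Of 22 glycolysis genes 5 fell and 0 rose (5 lower in edgeR, 8 in DESeq2, 9 lower and 0 higher at an unadjusted p below 0.05), with a median of -0.36. ALDOC, a brain-type aldolase, fell by 1.14, PFKFB4, which makes an activator of phosphofructokinase, by 1.08, ENO2, a neuron-type enolase, by 0.91 and PFKL, liver-type phosphofructokinase, by 0.90 on the log2 scale (limma adjusted p from 0.00908 to 0.0314). The list median was -0.56 in sg2-1, -0.10 in sg2-2 and -0.22 in sg2-3, and -0.41 to -0.14 in sg1. Without sg2-1, 10 members were lower and 2 higher in sg2.

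Integrins and matrix genes fell more often than they rose. Of 16 tested integrin chains 4 fell and 0 rose (median -0.52; 5 lower in edgeR, 7 in DESeq2, 9 lower and 0 higher at an unadjusted p below 0.05). They were ITGA1, ITGA10, ITGA2 and ITGB4, the last being the laminin-binding chain of hemidesmosomes (9459, 8703 and 9476 in NTC, and 5004, 2540 and 2214 in sg2; -1.60, limma adjusted p = 0.0304). The integrin median was -0.49, -0.53 and -0.52 in the 3 sg2 libraries, and -0.12 to 0.05 in sg1, and without sg2-1 9 were lower and 0 higher. Of 32 extracellular matrix genes 4 fell and 1 rose (median -0.29): FN1, COL18A1 (-1.60), COL6A2 (-1.46) and COL6A3 (-1.16) fell, and the riser, named because it was the only one, was COL12A1 (1.02). COL6A3, also on the stromal marker list, was at 1274, 1298 and 1374 in NTC and at 644.5, 567 and 560.4 in sg2. For matrix genes edgeR gave 1 higher and 4 lower and DESeq2 2 and 5, and 3 and 10 had an unadjusted p below 0.05 in limma. The matrix median was -0.03 in sg2-1, -0.55 in sg2-2 and -0.51 in sg2-3, and 0.12 to 0.23 in sg1. Without sg2-1, 17 matrix genes were lower and 3 higher in sg2.

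Of 18 matrix proteases and their inhibitors 5 fell and 1 rose. The falls count MMP7, the metalloprotease matrilysin, which passed the filter through the NTC libraries alone and so had to differ. It was at 28.0, 43.5 and 18.5 in NTC and at 7.96, 2.11 and 1.31 in sg2. Its level was near that of a few reads in sg2-2 and sg2-3, and its log2 fold change of -2.87 (limma adjusted p = 0.0414) is understated by the pseudocount. Beside TIMP3, TIMP1, another metalloprotease inhibitor, fell by 1.09 and SERPINE2, a thrombin inhibitor, by 0.95. In this list edgeR gave 1 higher and 5 lower and DESeq2 2 and 5, and 4 and 8 had an unadjusted p below 0.05 in limma. The proteases' list median was 0.30 in sg2-1 and -0.36 and -0.48 in the other sg2 libraries, and 0.17 to 0.31 in sg1. Without sg2-1, 10 members were lower and 3 higher in sg2.

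Of 13 mesenchymal markers 1 fell, TGFBI (-1.28), and 0 rose, and of 21 epithelial markers 3 rose and 0 fell (0 lower in edgeR, 2 lower in DESeq2, 3 lower at an unadjusted p below 0.05). For mesenchymal markers edgeR gave 0 calls and DESeq2 2 higher and 3 lower, and 2 were higher and 4 lower at an unadjusted p below 0.05. The risers were KRT81, a hair keratin found in breast cancer cells, at 3524, 6152 and 3912 in NTC and 13170, 12713 and 14220 in sg2 (1.60, limma adjusted p = 0.0137), KRT80 (0.83), and LLGL2, a cell polarity gene (0.95). KRT81 has close copies among the hair keratins. The epithelial median was 0.03, equal to that of all genes. Without sg2-1, 7 mesenchymal markers were lower and 2 higher, and 6 epithelial markers were lower and 6 higher, where 20.5% of all genes were lower and 29.5% higher. CDH1, the epithelial cadherin, was at most 17.9 in any of the 6 libraries.

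Genes downstream of ERK, BMP and TGF beta signalling were mostly lower where limma called them with all 6 libraries, with 2 TGF beta targets higher. Of 21 immediate early genes 4 fell and 0 rose (median -0.42; 2 lower in edgeR, 6 in DESeq2, 8 lower and 1 higher at an unadjusted p below 0.05). FOS was at 800.5, 868 and 718 in NTC and at 199.8, 93.8 and 98.0 in sg2. NR4A2, an orphan nuclear receptor, fell by 1.93, JUNB, an AP-1 subunit, by 1.17 and KLF10, a TGF beta-inducible zinc finger factor, by 0.70. Of 15 feedback genes of ERK signalling 2 fell, DUSP6, an ERK phosphatase (-1.08), and SPRED1, an inhibitor of RAS signalling (-0.89), and 0 rose (5 lower and 0 higher in edgeR, 7 and 0 in DESeq2, 9 and 0 at an unadjusted p below 0.05). By library, the immediate early median was -0.05 in sg2-1, -0.46 in sg2-2 and -0.68 in sg2-3. The ERK feedback median was -0.38, -0.60 and -0.63 in the same order. Without sg2-1, 13 immediate early genes were lower and 1 higher, and 10 ERK feedback genes lower and 0 higher.

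Of 10 BMP targets 3 fell and 0 rose in limma (2 lower in edgeR, 3 lower and 1 higher in DESeq2, 4 lower and 1 higher at an unadjusted p below 0.05). Those that fell were ID1, ID2 and ID4, inhibitors of basic helix-loop-helix factors. ID1 was at 14391, 14279 and 13424 in NTC and at 6628, 7201 and 7069.5 in sg2, with narrow groups that did not overlap (-1.01, limma adjusted p = 0.0135). ID4 fell by 1.54 and ID2 by 1.11. Of 22 TGF beta targets 6 fell and 2 rose (median -0.28). TGFBI, a matrix adaptor protein, fell by 1.28, TGFBR2, the type II receptor, by 1.21 and LTBP1, a latent TGF beta binding protein, by 1.06, whereas IL11 was 1 of the risers. The median of BMP targets was 0.0042 in sg2-1, near the NTC level, and -0.63 in sg2-2 and -0.73 in sg2-3. That of TGF beta targets was -0.18, -0.38 and -0.50 in the same order. Without sg2-1, 5 BMP targets were lower and 1 higher, and 11 TGF beta targets lower and 3 higher.

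With all 6 libraries the YAP targets that were called rose. Of 16 tested members 5 rose, where 2.08% of all genes rose, and 0 fell in limma, edgeR or DESeq2 (9 higher and 0 lower at an unadjusted p below 0.05), with a median log2 fold change of 0.42. F3, tissue factor, the starter of coagulation, was at 1522, 1805 and 1272 in NTC and at 7478, 4457 and 4120 in sg2 (1.76, limma adjusted p = 0.0145). AJUBA, a LIM protein that inhibits the Hippo kinases, rose by 1.22 and CYR61 (CCN1), a matricellular protein, by 1.21. The list median was 0.56 in sg2-1, 0.36 in sg2-2 and 0.33 in sg2-3, and 0.23 to 0.29 in sg1. Without sg2-1, 9 were higher and 3 lower.

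Cholesterol synthesis genes separated sg2-2 and sg2-3 from sg2-1. Of 25 tested members 5 rose and 1 fell in limma (median 1.00). The count of rises depended on the tool, with 8 in edgeR, 18 in DESeq2 and 20 at an unadjusted p below 0.05, each with 1 fall, and without sg2-1 limma gave 23 rises and 1 fall. MVK, mevalonate kinase, was at 324, 343 and 330 in NTC and at 508, 1158 and 1028 in sg2 (log2 fold change 1.35, limma adjusted p = 0.0476). All sg2 libraries lay above all NTC libraries, with sg2-1 the lowest of them. DHCR7, the last enzyme of the Kandutsch-Russell branch, rose by 1.34 and LSS, lanosterol synthase, by 0.84. The member that fell, named because it was the only one, was TM7SF2, a sterol reductase (-0.64, limma adjusted p = 0.0414). By library the list median was 0.18 in sg2-1, 1.44 in sg2-2 and 1.31 in sg2-3, while sg1 had 0.43 to 0.48. Of 17 fatty acid synthesis genes 0 passed in limma or edgeR (4 higher in DESeq2, 5 higher and 1 lower at an unadjusted p below 0.05), and without sg2-1 11 were higher and 3 lower. SCD, the stearoyl-CoA desaturase, was at 8153, 9549 and 9441 in NTC and at 6753, 22885 and 18523 in sg2, below all controls in sg2-1 and above all of them in the other sg2 libraries.

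Genes of growth gave a like split. In the list of 38 G1/S and replication genes, 8 rose and 0 fell in limma (median 0.62; 9 higher in edgeR, 22 in DESeq2, 28 higher and 0 lower at an unadjusted p below 0.05), and without sg2-1 37 were higher and 0 lower. CLSPN, the checkpoint adaptor claspin, was at 728, 778 and 675 in NTC and at 1224, 2012 and 2145 in sg2 (1.26, limma adjusted p = 0.027). CDC6, the licensing factor, rose by 1.16, and ORC6 and ORC1, subunits of the origin recognition complex, by 0.88 and 0.81. The list median was 0.21 in sg2-1, 0.74 in sg2-2 and 0.83 in sg2-3, and -0.20 to -0.10 in sg1.

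Of 33 ribosome biogenesis genes 5 rose and 0 fell (median 0.55; 10 higher in edgeR, 18 in DESeq2, 23 higher and 0 lower at an unadjusted p below 0.05), with 28 higher and 0 lower without sg2-1. RRS1, a ribosome assembly factor, was at 105, 142 and 97.5 in NTC and at 239.6, 367 and 418 in sg2 (1.55, limma adjusted p = 0.0213). NOP2, an rRNA methyltransferase, rose by 0.80, NOP14, a small subunit assembly factor, by 0.74 and NOP56, a core protein of C/D small nucleolar ribonucleoproteins, by 0.71. In both lists sg2-1 lay above the NTC level, in contrast to the lists that follow.

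For several large gene families the direction in sg2-1 was opposite to that in sg2-2 and sg2-3. The median of 74 cytosolic ribosomal protein genes was -0.61 in sg2-1 and 0.48 and 0.49 in the others, with -0.82 to -0.77 in sg1. With all libraries 0 of the 74 passed in limma, edgeR or DESeq2, and 0 had an unadjusted p below 0.05, whereas without sg2-1 66 were higher and 0 lower in limma. RPLP0, of the ribosomal stalk, was at 25730, 26430 and 30303 in NTC and at 19717, 36791 and 36655 in sg2. Nuclear genes of the respiratory chain had medians of -0.43, 0.52 and 0.54 (0 of 63 called in limma and edgeR, 3 higher in DESeq2, 3 higher at an unadjusted p below 0.05, and 55 higher without sg2-1). Proteasome genes had medians of -0.11, 0.74 and 0.76, and G2/M genes -0.34, 0.38 and 0.43. Of 29 proteasome genes limma called 0, edgeR 1 higher and DESeq2 6 higher (9 higher at an unadjusted p below 0.05), and of 39 G2/M genes limma and edgeR called 0 and DESeq2 1 higher and 1 lower (2 higher and 1 lower at an unadjusted p below 0.05). Without sg2-1, 28 proteasome genes were higher and 0 lower, and 30 G2/M genes higher and 2 lower.

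Histone and small RNA genes divided in the same way. The median of 42 tested histone genes, of 74 listed, was -0.65 in sg2-1, 0.88 in sg2-2 and 0.79 in sg2-3, with 1 rise in all libraries, HIST1H2BA, beside HIST1H2AA, which passed the filter through the sg2 libraries alone and so had to differ, and 37 without sg2-1. The median of 58 tested small nucleolar and Cajal body RNA genes, of 262 listed, was -0.58, 0.59 and 0.73, with 1 rise (SNORD3B-2, 1.28) in all libraries and 29 without sg2-1. Histone and small RNA genes include near-identical copies, and their values are uncertain. In sg1 the histone median was -1.11 to -0.95, so sg2-1 had the sign of sg1. The reads in small nucleolar and Cajal body RNA genes given above come from the genes of the small RNA list, so they are no separate observation. They moved with the histone list as well, and their part in it was not tested.

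**Figure D3:**
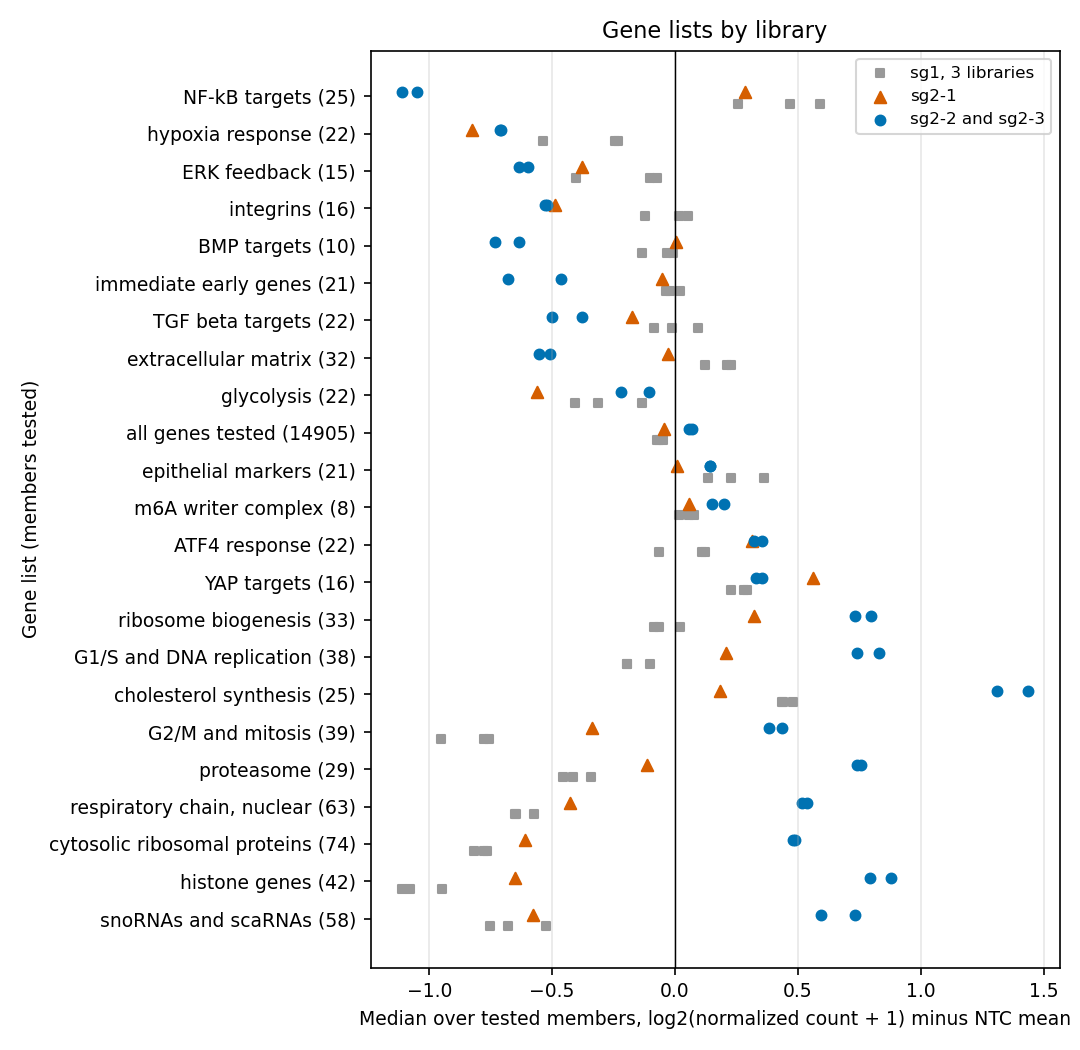
Median over the tested members of each gene list of the log2(normalized count + 1) difference from the NTC mean, for sg2-1 (triangle), sg2-2 and sg2-3 (circles) and the sg1 libraries (squares), with the number of members tested. The hypoxia and integrin medians are alike in the 3 sg2 libraries, while histone genes lie at -0.65 in sg2-1 and at 0.79 and 0.88 in the others.

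NF-kB targets had the opposite order. Of 25 tested members 5 fell and 2 rose with all libraries (median -0.80), and without sg2-1 21 were lower and 2 higher. By library the list median was 0.28 in sg2-1, -1.05 in sg2-2 and -1.11 in sg2-3, while sg1 had 0.26 to 0.59. CXCL8, the chemokine interleukin 8, was at 2424, 2165 and 2031 in NTC and at 906, 345 and 418 in sg2, lower in all 3 (-2.11, limma adjusted p = 0.0198). The risers were IL11 and IL24. Of 31 interferon response genes 1 fell, near the 2.50% over all genes. It was IFITM1, a membrane protein that restricts viral entry (-1.45, limma adjusted p = 0.00908), and 0 rose (3 lower in edgeR, 4 in DESeq2, 10 lower and 1 higher at an unadjusted p below 0.05), and without sg2-1 17 were lower and 1 higher.

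Single genes showed the division plainly. C3, complement component 3, was at 205, 241 and 226 in NTC and at 359, 27.4 and 18.3 in sg2, and MMP1, interstitial collagenase, at 523, 590 and 408 in NTC and 2171, 194 and 218 in sg2. IL6 was at 204, 199 and 153 in NTC and at 633, 93.8 and 77.1 in sg2. In these genes sg2-1 was above all controls and the other sg2 libraries below all of them. ENTPD3, a surface nucleotidase, LTB4R, a leukotriene receptor, and GOLGA8B, a golgin of a multi-copy family, had the same pattern, with sg2-1 above the mean of the others by 3.27, 2.97 and 2.57 on the log2 scale. In the other direction, RPS21 was at 6620, 7080 and 7994 in NTC and at 3306, 13124 and 13503 in sg2. SNRPG, a core protein of splicing particles, and the histone genes HIST1H2AJ, HIST1H2BB, HIST1H2AB and HIST1H3J were likewise low in sg2-1 and high in the others. None of these 12 genes passed with all 6 libraries in limma (adjusted p from 0.28 to 0.934), and each was chosen for this gap, so the values are a description.

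Other lists had few calls with all 6 libraries or, for p53 targets, calls in both directions. Over all genes 2.08% rose and 2.50% fell in that fit. Of 21 p53 targets 2 rose, TIGAR, a regulator of glycolysis (1.06), and AEN, an exonuclease (0.79). In the same list 3 fell, among them TP53INP1 (-0.94) and the cell death gene BBC3 (-0.85). For p53 targets edgeR gave 2 higher and 3 lower and DESeq2 3 and 4, and 5 and 5 had an unadjusted p below 0.05 in limma. Of 22 ATF4 targets 2 rose, the amino acid transporter chain SLC3A2 (0.83) and the pseudokinase TRIB3 (0.73), and 0 fell (0 lower in edgeR, 1 in DESeq2, 1 at an unadjusted p below 0.05). Of 11 genes of the MYC network 1 fell, MXI1, and of 21 ERBB and receptor kinase genes 1 fell, the EGF family ligand EREG (-0.77, limma adjusted p = 0.0413). Of 20 nuclear long noncoding RNAs 2 rose, SNHG7 (0.64) and SNHG3 (0.64), both hosts of small nucleolar RNAs. Without sg2-1 the numbers higher and lower were 6 and 6 for p53 targets, 13 and 2 for ATF4 targets, 1 and 5 for the MYC network, 2 and 8 for receptor kinase genes and 13 and 4 for the long noncoding RNAs. Over all genes in that fit 29.5% were higher and 20.5% lower. In the lists of the unfolded protein response (18), MHC class I (7), cleavage and polyadenylation (18), large chromatin regulators (29) and mitochondrially encoded respiratory chain genes (13) limma called 0. In these 5 lists edgeR called 1, 0, 0, 0 and 0, DESeq2 3, 1, 1, 2 and 0, and 3, 1, 3, 2 and 0 had an unadjusted p below 0.05. Of all 14905 genes edgeR called 756 and DESeq2 1894, and 3410 had an unadjusted p below 0.05 in limma. Without sg2-1 these 5 lists had 7, 0, 8, 0 and 1 members higher and 2, 2, 4, 10 and 1 lower.

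Transcripts were also sorted by the m6A summits that the authors' deposited list gives for control cells, 1 list with 8377 summits. Of these, 7108 lay within the span of a single protein-coding gene, and 4582 genes held at least 1. Among 12246 tested protein-coding genes, 7861 had no summit, 2838 had 1 and 1547 had 2 or more. With all 6 libraries the share of genes that fell was 2.54%, 3.38% and 3.94% in these 3 classes, and the share that rose 2.11%, 2.40% and 2.52%. Without sg2-1 the share lower was 17.7%, 25.9% and 36.7%, and the share higher 38.0%, 27.5% and 15.1%. The share of falls grew with the number of summits in both fits, whereas the share of rises was nearly flat with all libraries and shrank without sg2-1.

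The library medians went opposite ways. In genes without a summit the median log2 difference from NTC was -0.13 in sg2-1, 0.16 in sg2-2 and 0.17 in sg2-3, and in genes with 2 or more it was 0.07 in sg2-1 and -0.16 and -0.22 in the others. The sg1 libraries had the order of sg2-1, with -0.19 to -0.14 without a summit and 0.05 to 0.12 with 2 or more. Level moved with this class, with a median normalized count of 530.2 without a summit and 609 with 2 or more. Within the third of genes with the highest level, the medians without a summit were -0.26, 0.28 and 0.30 in sg2-1, sg2-2 and sg2-3, and with 2 or more -0.02, -0.13 and -0.16. In the third with the lowest level the signs without a summit were turned, at 0.15, -0.09 and -0.06, and with 2 or more summits the medians were 0.21, -0.16 and -0.27. The share of falls with all 6 libraries was 2.68%, 3.16% and 3.03% over the summit classes in the third of middle level, so it did not grow steadily there. The part of gene level and length in this order was not tested further. Summits were called in control cells from 1 pull-down and input, so their number has no replicate. HAS2 and VIRMA each held 1 control summit, FOS 1, CA12 4 and COL6A3 5, whereas CST1, FN1, CA9 and IL11 held 0.

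**Figure D4:**
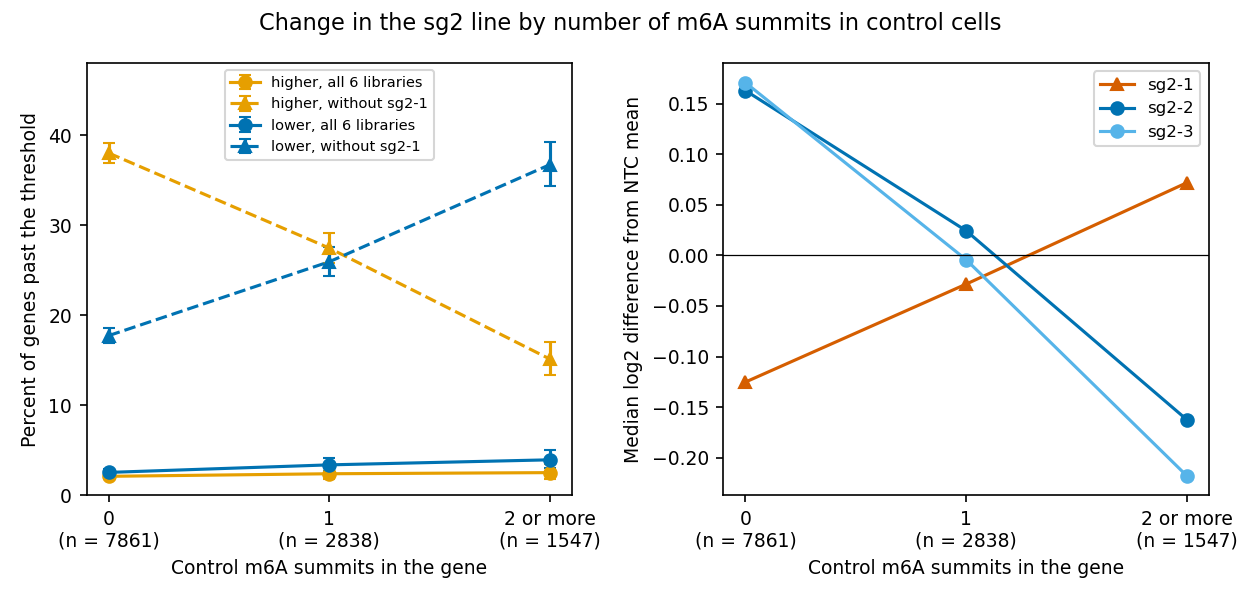
Left, percent of tested protein-coding genes past the threshold by number of control m6A summits, with all 6 libraries (circles) and without sg2-1 (triangles), and exact 95% binomial intervals that cover counting error only. Right, median log2 difference from the NTC mean in each sg2 library, which rises with summit number in sg2-1, from -0.13 to 0.07, and falls in sg2-2 and sg2-3.

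With all 6 libraries, medians differed little by position and gene span. The median log2 fold change by chromosome ran from -0.03 on chromosome 19 to 0.11 on chromosome 13. Over 5 classes of gene span of near-equal size, the median of protein-coding genes ran from 0.07 in the shortest (276 to 10686 nt) to -0.05 in the longest (99636 nt and more). Without sg2-1 the span classes differed more: 38.2% of the shortest genes were higher and 19.9% lower, against 21.6% and 25.8% of the longest. On chromosome 13, 36.8% were higher and 12.4% lower in that fit, and on chromosome 22 23.5% and 27.0%. Among 20 small nuclear RNA genes limma called 0 with all libraries and 90% were higher without sg2-1, with medians of -0.56 in sg2-1 and 1.15 and 1.24 in the others.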

How the data were processed

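RNA-seq of 3 sg2 and 3 NTC libraries was compared, with 3 sg1 libraries beside them. Groups and replicate numbers came from the sample titles. Tools listed in the submitters' processing notes, without roles, are STAR, HTSeq, DESeq2, MACS2, cutadapt and FastQC (0.11.8), and the build is hg38.

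The values the authors deposited are a normalized signal, read counts divided by 1 factor per library. In each of the 9 libraries 100.0% of the values above 0 were whole multiples of 1 step within 0.1 read, and dividing by that step gave the reads per gene (less certain for NTC-2, whose step is close to 1). Since normalized values are not counts, the test used was limma 3.58.1 (R 4.3.3, trended variance, no covariates) on log2(value + 1). Genes needed a value of 10 or more in 3 of the 6 libraries, and p values were adjusted by the Benjamini-Hochberg method over 14905 genes with a threshold of 0.05. The pseudocount understates changes of low genes. edgeR 4.0.16 and DESeq2 1.42.0 were run on the recovered reads. On simulated counts limma recovered 40% of 2-fold and 81% of 4-fold changes in this comparison of 14905 genes and called 0.0816% of unchanged genes. The simulated noise was independent between genes and alike in all libraries. In the data sg2-1 lies apart over many genes at once, so these rates may not hold for them.

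The members and gene lists were chosen with earlier results of these data known. Named genes are VIRMA, HAS2, and protein-coding genes past the threshold with and without sg2-1, without overlap and with a mean of at least 100 normalized counts in the higher group (12 largest rises, 12 largest falls, 6 highest means). To these are added up to 4 changed members of each list, or its 2 highest where none changed, and 12 genes on which the sg2 libraries split. Others are named as chosen after their values were seen. Some genes that the rule names are not reported here. Whether counting used strand is not stated in these notes.

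The deposited summit list gives a position and a -log10 score per summit, from the authors' peak calling. Promoters and gene positions are RefSeq's on GRCh38.p14, matched by symbol; 97 of 127 named genes had a promoter.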

Additional observations from a re-analysis of the deposited data

Results flagged for a closer look

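Of 31 genes (VIRMA, HAS2 and those with the largest changes or the most reads), 24 also differed between sg2 and sg1 (limma on all 9 libraries, contrast sg2 minus sg1, adjusted p below 0.05; 4774 of all tested genes passed). This contrast includes sg2-1, which lay near the sg1 libraries, and it was not fitted without sg2-1. The difference is given on the log2 scale, and the NTC libraries do not enter it except through the shared spread. Among genes that rose in sg2, it was 2.76 for IL11, 2.48 for HIST1H2BA, 1.95 for AP1M2, 1.51 for ANKRD1, 1.07 for SH2D5, 0.94 for SP140, 0.78 for ZNF114 and 0.70 for SLAMF7. Among genes that fell, it was -3.45 for CST1, -2.69 for CST4, -2.50 for CST2, -2.70 for APOE, -2.63 for CHI3L2, -2.45 for CXCL1, -2.19 for ITGA10, -2.14 for CA9, -2.05 for FN1, -2.04 for ITGA1, -1.64 for SNED1, -1.23 for NDRG1, -1.04 for TIMP3, -0.76 for FOS, -0.74 for ERRFI1 and -0.69 for ITGA2. Most of these genes were chosen for their change between sg2 and NTC, so the list is a description. FN1 had a mean of 19450 ± 3948 in sg1 and 4751 ± 1436 in sg2, and IL11 a mean of 189 ± 41.8 in sg1 and 1350 ± 533 in sg2 (SD, n = 3).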

How the results depend on the processing

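The number of changed genes depended on the libraries more than on the tool. With all 6 libraries it was 682 (310 higher, 372 lower), within 1.5 times of which edgeR, a pseudocount of 10, no filter on low values and TMM scaling stayed (604 to 765). DESeq2 gave 1894 (902 higher, 992 lower) and the fit of all 9 libraries 1481 (714 and 767). Estimated library weights, which did not converge, gave 10240 (5802 and 4438). The weight was 0.0538 for sg2-1, 28.0 for sg2-2, 0.702 for sg2-3 and 0.512 to 1.73 for NTC. The sg2 side of that fit thus rested mostly on sg2-2. Leaving out each library in turn gave 0 to 7454 genes, 0 to 4395 higher and 0 to 3059 lower. The highest came without sg2-1, where edgeR gave 7329 (3746 and 3583) and DESeq2 6385 (3341 and 3044), 2 fits added after seeing the data.

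The replicate numbers did not pair the libraries: deviations of same-numbered NTC and sg2 libraries correlated at -0.0236, -0.116 and 0.0289 (different numbers -0.0742 to 0.109). With the number as a block 280 genes changed (113 higher, 167 lower) and HAS2 kept its call (adjusted p = 0.0343). VIRMA passed the threshold only with library weights (-0.17, limma adjusted p = 0.0324). HAS2 ranged from -1.98 to -1.40 over the fits without 1 library. CAV1, at -0.06 with all libraries, turned to 0.30 with library weights, 0.29 without sg2-1 and 0.22 with edgeR without sg2-1 (-0.26 to 0.29 over the fits without 1 library). Of genes with a control m6A summit, 2.44% rose and 3.58% fell, and without sg2-1 23.1% and 29.7%. Depth limits values near 1 read, such as MMP7 in sg2. The cause of these shifts was not tested.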
